A study of Enchytraeus crypticus with 9 samples.

Results

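The 300 gene probes with the brightest signal in control worms were followed across Control and UV-exposed *Enchytraeus crypticus*, a small white potworm of the soil that is used in standard ecotoxicity tests. A probe entered the ranking if its signal was positive and significantly above background on all 9 arrays, which held for 27935 of the 43750 gene probes. The log2 processed intensity of each was set relative to the array's median over these probes and averaged over the 3 Control arrays. The 300 highest, or 1.07% of the 27935 ranked, are the members described here. One member, contig22287 at rank 186, carried an outlier flag of the local background on at least 1 array and was left out of the fits, so that 299 of 300 were tested among 27856 probes.

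The series held 9 single-colour arrays, 3 in each of 3 groups, and each array received RNA from the whole bodies of a pool of 40 adults with a developed clitellum. All worms spent 5 days in reconstituted water. Control worms were kept under the usual light of the laboratory, whereas UV Dose 1 and UV Dose 2 stand for total doses of 7500 and 8100 J/m² over that time. The source text of the arrays titled UV Dose 2 carries the name of the lower dose next to 8100 J/m², and their titles and treatment labels were followed. RNA of a whole body mixes all tissues, so that fewer cells of a type and less RNA per cell cannot be told apart. The scanner files give 4 slides. Slide 2 held Control replicate 2 with UV Dose 1 replicates 2 and 3, slide 4 held UV Dose 1 replicate 1 with all UV Dose 2 arrays, and Control replicates 1 and 3 each came from a slide of their own.

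In animal whole-body RNA a small part of the genes commonly supplies a large part of the messenger RNA. Ribosomal proteins, translation factors, enzymes of energy metabolism, muscle proteins and secreted proteins are frequent among them. UV radiation damages DNA and proteins, and cells answer with repair and changed transcription. The files name each probe by an assembled contig or by a single sequencing read of the transcriptome, and pair neither with a gene, so that no role can be given to any member. Of the 300 members, 151 (50.3%) were named by a contig and 149 (49.7%) by a read, against 50.5% and 49.5% among all ranked probes. Among the 10 brightest, 9 were contigs and 1 was a read. The brightness of a spot also depends on how well its probe binds, so the order of the probes is not an order of transcript numbers.

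The members held a large and stable share of the fluorescence. Their summed processed intensity was 45.8%, 42.5% and 43.3% of the gene signal on the 3 Control arrays, 44.9%, 42.9% and 44.7% under UV Dose 1, and 44.7%, 43.6% and 44.1% under UV Dose 2. The means were 43.9% ± 1.73 (SD, n = 3), 44.2% ± 1.11 (SD, n = 3) and 44.1% ± 0.57 (SD, n = 3), so the groups differed by less than the spread between replicates. The 100 brightest alone held 25.8% to 28.0%, and the 10 brightest 5.91% to 7.83%. Between 323 probes (Control replicate 1) and 443 probes (Control replicate 2) were enough to reach 50% of the signal of an array. All 300 members were well above background on all 9 arrays and 0 were saturated, the brightest spot reaching 44% of the saturation value on Control replicate 1 and at most 37.5% elsewhere.

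**Figure D1:**
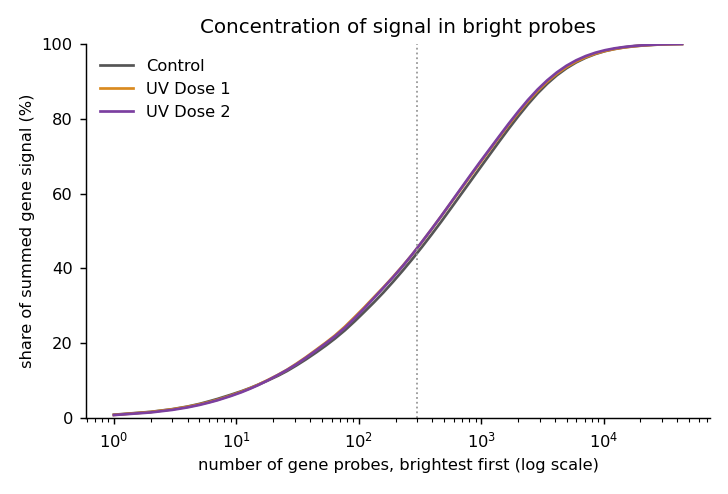
The share of the summed gene signal (%) is plotted against the number of gene probes counted from the brightest down (log scale), as group means of 3 arrays, with a dotted line at 300. The lines of the 3 groups lie almost on top of each other, and the members themselves held 42.5% to 45.8% of the signal of single arrays.

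The brightest probe was contig02249. Its level, the log2 intensity after SVCD normalization, was 18.80, 18.30 and 17.86 on the Control arrays, 18.15, 18.24 and 18.13 under UV Dose 1, and 18.25, 18.11 and 18.28 under UV Dose 2. It was the brightest probe in each of the 3 groups, and the UV arrays lay within the range of Control. By itself it held 0.91% of the gene signal in Control. The next in Control were contig04480, contig01799, contig14755, contig07432, contig03151, GYUW2K402I2XAG, contig21535, contig12983 and contig01918, with shares from 0.77% down to 0.48%. Of these 10, 9 were also among the 10 brightest at each UV dose, and contig12983, the exception, stood at rank 11 under UV Dose 1 and 13 under UV Dose 2. No member of the 10 was called against Control or between the doses. In 9 of them Control replicate 1 was the brightest of all 9 arrays, and contig01918 was the exception, with 17.37, 17.47 and 17.39 in Control, 17.55, 17.68 and 17.56 under UV Dose 1, and 17.39, 17.57 and 17.70 under UV Dose 2.

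The limit of 300 cut through a dense range. The last member, GYUW2K401A24EF, had a level relative to the array median of 8.571, and the first probe outside, GYUW2K402GI2EQ, had 8.566, a gap far below the Control SD of 0.20 and 0.22 of this pair. Their normalized levels on the Control arrays were 14.59, 14.21 and 14.28 for the first and 14.53, 14.11 and 14.43 for the second. Single Control arrays thus gave partly different lists: 256 members were among the 300 brightest probes of Control replicate 1, 279 of replicate 2 and 284 of replicate 3.

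Most members kept their place under UV. The UV arrays entered the filter but not the ranking. On the UV Dose 1 arrays 264 of the 300 (88%) were among the 300 brightest, and on the UV Dose 2 arrays 263 (87.7%). In both doses and Control together 256 were. The 36 that left at UV Dose 1 had a median rank of 363.5 there, and 26 of them came from the last 100 of the Control ranking. The 37 that left at UV Dose 2 had a median rank of 345, and 28 came from the last 100. Across the 300 members, which are not independent replicates, the Spearman correlation of the mean level with Control was 0.87 for UV Dose 1 and 0.86 for UV Dose 2. A single member, contig19694, was beyond rank 1000 at both doses, at 4557 and 6157 after 222 in Control.

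The places were taken mainly by neighbours. Of 30 probes that entered the 300 brightest at both doses, 3 had a Control rank beyond 1000, and they are named here after their values were seen. These were GYUW2K402HSXGV (rank 3411), GYUW2K402HFWBH (3285) and contig09612 (1471). The level of contig09612 was 12.75, 11.93 and 11.85 in Control, 15.24, 15.94 and 15.61 under UV Dose 1, and 15.59, 15.81 and 15.72 under UV Dose 2. All its UV arrays lay above all its Control arrays, and it stood at rank 99 and 98 at the doses.

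The difference between the doses does not include the Control arrays, which chose the members, although their residuals enter the SE and p of the fit over 9 arrays. limma called 0 of 299 members between UV Dose 2 and UV Dose 1 at an adjusted p under 0.05, where it called 0 of 27856 probes (0%). At an unadjusted p under 0.05 there were 2 members (0.669%), against 3.55% of all probes tested, and the smallest adjusted p of a member was 1. The methods' t-test also called 0 members. The median absolute difference of a member was 0.08 on the log2 scale, or 1.06-fold, against 0.17 over all probes. A p that misses the threshold does not show equal levels, and the median half-width of a member's 95% interval was 0.40. For 273 of the 299 members the whole interval lay within a 2-fold difference in either direction.

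The pair of members with an unadjusted p under 0.05 were contig20180, which was named after its values were seen, and contig19694. The level of contig20180 was 14.86, 15.12 and 14.72 in Control, 14.39, 14.55 and 14.57 under UV Dose 1, and 15.29, 14.80 and 15.18 under UV Dose 2. The UV Dose 2 arrays were all above the UV Dose 1 arrays, by 0.59 on average (SE 0.19, limma adjusted p 1). For contig19694 the difference was -0.87 (SE 0.30, limma adjusted p 1). The next lowest differences, of GYUW2K401EEV6Q with -0.16 (SE 0.43) and contig09657 with -0.15 (SE 0.19), were below their errors. The 3 highest differences were 1.26 for GYUW2K401AWZH1 (SE 1.23), 1.09 for GYUW2K402JGWRU (SE 1.21) and 0.94 for GYUW2K402GZV7X (SE 0.98), and each of the 3 was dim on UV Dose 1 replicate 2.

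As a group the members lay slightly higher at UV Dose 2 than at UV Dose 1. The median difference was 0.08, with quartiles of 0.04 and 0.13, against 0.01 over all probes tested, and 262 of the 299 members lay above 0, against 52.5% of all probes. The pooled SD of the members' median level between replicate arrays was 0.07, about as large as the difference. On slide 4, which held arrays of both doses, the median difference was 0.12 for the members and 0.04 for all probes. It rests on 1 UV Dose 1 array, replicate 1. Of all 9 arrays, that one had the lowest median deviation of the members from their own means (-0.08). Quantile normalization gave -0.03 for the members and -0.002 for all probes, and another background correction (normexp) gave -0.014 and 0.003. In both, the members lay below the median of all probes. Spike-in scaling, which shifts all probes of an array alike, gave -0.02 and -0.08, so that the members still lay above the other probes there.

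Against Control, the arrays that chose the members are part of the contrast. A probe that was bright on these arrays by chance leans towards a fall, so the counts that follow are descriptions and nothing is read from them. For UV Dose 1, 18 members (6.02%) were called, against 5.26% of all probes. Of them 7 rose (2.34%, against 1.21% of all probes) and 11 fell (3.68%, against 4.05%). For UV Dose 2, 18 members (6.02%) were called, against 4.99% of all probes. Of them 9 rose (3.01%, against 1.75%) and 9 fell (3.01%, against 3.23%). The comparisons share the Control arrays, and 16 members were called in both, 7 higher and 9 lower at each dose. In 24.7% of the members tested, all UV Dose 1 arrays lay on one side of all Control arrays, against 23.5% of all probes. For UV Dose 2 the shares were 23.7% and 24.6%.

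**Figure D2:**
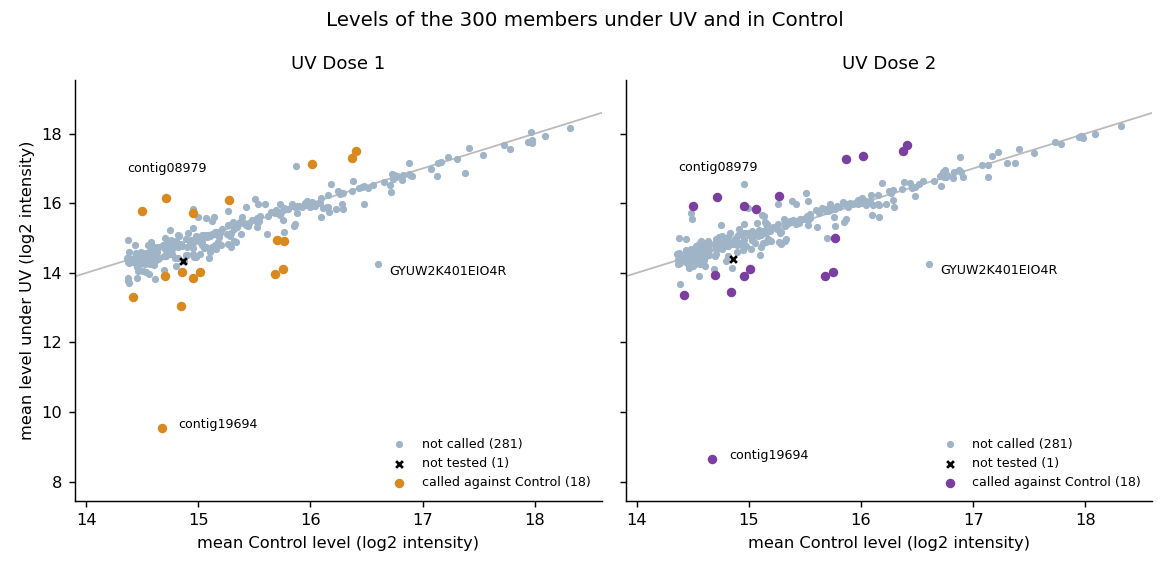
The mean level under UV Dose 1 (left) and UV Dose 2 (right) is plotted against the mean Control level for each of the 300 members, both as log2 intensity, with a line of equal levels. Called members are drawn in colour, the untested one as a cross, and contig19694 lies far below the line at both doses.

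The number and balance of these calls moved with the processing. With the slide as a fixed block, 1 member was called for UV Dose 1 and 0 for UV Dose 2, against 0.079% and 0% of all probes. The fitted changes stayed about as large in that fit, with -5.47 and -6.57 for contig19694 and 1.47 and 1.57 for contig08979. No Control array shared a slide with a UV Dose 2 array. Control replicates 1 and 3 were alone on their slides, so in that fit Control replicate 2 alone carried the comparisons with Control. Median normalization gave 7 rises and 4 falls for UV Dose 1 and 12 and 3 for UV Dose 2, and scaling to the 75th percentile gave 6 and 2, and 10 and 3. MedianCD normalization gave 5 and 19, and 7 and 11, Quantile normalization 6 and 4, and 7 and 7, and spike-in scaling 1 and 2, and 1 and 1. Under these 5 scalings 1% to 8.03% of the members were called for UV Dose 1 and 0.669% to 6.02% for UV Dose 2, against 0.987% to 9.79% and 1.15% to 7.22% of all probes. The median change of the members was -0.04 for UV Dose 1 and 0.04 for UV Dose 2, against -0.03 and -0.04 over all probes. All 18 called members at each dose kept the sign of their change under each of 23 alternatives. The methods' t-test, the 6 arrays of a comparison and the replicate block leave the change itself unaltered, so they could not turn it. Scalings that shift all probes of an array alike, by less than the called changes, could not turn it either. The called members were picked by their changes on these same arrays, so the kept signs are a description. At each dose only 4 of the 18 stayed called whichever single array was left out.

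By far the largest change was that of contig19694. Its level was 14.50, 14.88 and 14.63 in Control, 9.77, 8.82 and 10.01 under UV Dose 1, and 8.55, 8.63 and 8.80 under UV Dose 2. Each UV array was more than 4 units below each Control array, and all remained well above background. The fitted changes of -5.14 (SE 0.30) and -6.01 (SE 0.30) correspond to 35.3-fold and 64.5-fold lower signal. Within slide 2 the change for UV Dose 1 was -5.47, the same value that the slide as a fixed block gives. This member was called for UV Dose 1 under all 23 alternatives, and for UV Dose 2 under 22, the exception being the slide as a fixed block.

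Among the other members called at both doses, contig07198, GYUW2K402G8V8Y and GYUW2K402GGCE5 had the largest falls, with changes of -1.80 to -1.40 on the log2 scale. Of the 23 alternatives, contig07198 was called under 21 for UV Dose 1 and 17 for UV Dose 2. The calls of the other members were fragile: GYUW2K402G8V8Y was called under 5 and 5, and GYUW2K402GGCE5 under 4 and 5. The level of contig07198 was 15.13, 14.53 and 14.87 in Control, 13.16, 12.64 and 13.32 under UV Dose 1, and 13.55, 13.55 and 13.22 under UV Dose 2, and all Control arrays lay above all UV arrays. The reads GYUW2K402G8V8Y and GYUW2K402GGCE5 moved as one, with a correlation of 0.999 over the 9 arrays. Their mean was followed by 32 tested probes at a correlation of 0.95 or more, of which 30 were no members. The level of GYUW2K402G8V8Y was 15.01, 16.04 and 15.99 in Control, 13.94, 13.41 and 14.55 under UV Dose 1, and 13.39, 14.33 and 14.05 under UV Dose 2. Control replicate 1 was the nearest to the UV arrays in this pair. Whether such probes belong to the same transcript was not analysed here, so counts of probes are not counts of genes.

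A set of 6 members lay lower under UV on every array. They were GYUW2K401D5N75, GYUW2K401CZD4M, contig21148, contig00681, GYUW2K401C4E47 and GYUW2K402H2V2K, and correlated with each other by 0.978 or more over the 9 arrays. The mean of these 6 was followed by 97 tested probes at a correlation of 0.95 or more, and 90 of them were no members. The level of contig00681 was 14.88, 14.96 and 15.03 in Control, 14.01, 13.67 and 13.91 under UV Dose 1, and 13.98, 13.66 and 14.05 under UV Dose 2, changes of -1.09 and -1.06 (SE 0.18). Within each dose, replicate 2 was the lowest array in 6 of the 6. All 6 were called for UV Dose 1 and 5 for UV Dose 2, GYUW2K401CZD4M being the exception with a change of -0.69. Most of these calls were fragile: for UV Dose 1, contig00681 was called under 19 of the 23 alternatives and GYUW2K402H2V2K under 15, but the other 4 under 4 to 7. The last called member with a fall, contig13588, was called for UV Dose 1 with -0.82 and not for UV Dose 2, where the change was -0.72.

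Among the members called as higher, contig08979 had the largest change at each dose. Its level was 14.73, 14.71 and 14.70 in Control, 16.08, 16.28 and 16.08 under UV Dose 1, and 16.22, 16.08 and 16.24 under UV Dose 2. The Control arrays agreed within 0.03, while the UV arrays lay at least 1.3 units higher. The fitted changes were 1.43 and 1.46 (SE 0.15), or 2.70-fold and 2.76-fold, and they moved the probe from rank 214 to 49 and 53. It was called under 22 of the 23 alternatives at each dose, and the slide as a fixed block was the exception.

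A set of 4 members lay higher under UV on every array. They were contig11584, contig00751, contig18233 and contig10430, with correlations of 0.982 or more. Among all probes tested, 124 correlated by 0.95 or more with the mean of these 4, and 117 of them were no members. The level of contig18233 was 15.70, 16.19 and 16.15 in Control, 17.08, 17.20 and 17.08 under UV Dose 1, and 17.23, 17.31 and 17.51 under UV Dose 2. The level of contig10430, the least bright of the 4, was 14.14, 14.78 and 14.57 in Control, 15.60, 15.79 and 15.94 under UV Dose 1, and 15.73, 15.95 and 16.06 under UV Dose 2. In each of the 4, Control replicate 1 was the lowest array. They were called under 11 to 18 of the 23 alternatives for UV Dose 1 and under 18 to 20 for UV Dose 2. With these changes contig11584 came to rank 10 and 9 at the doses, from 39 in Control. The remaining called rises were contig09404 (0.83 and 0.93) and contig00403 (0.78 and 0.96) at both doses, and contig00399 (1.40) and contig10662 (0.76) at UV Dose 2. Of the 23 alternatives, contig09404 was called under 6 for UV Dose 1 and 10 for UV Dose 2, and contig00403 under 7 and 12. For UV Dose 2, contig00399 was called under 7 and contig10662 under 3.

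**Figure D3:**
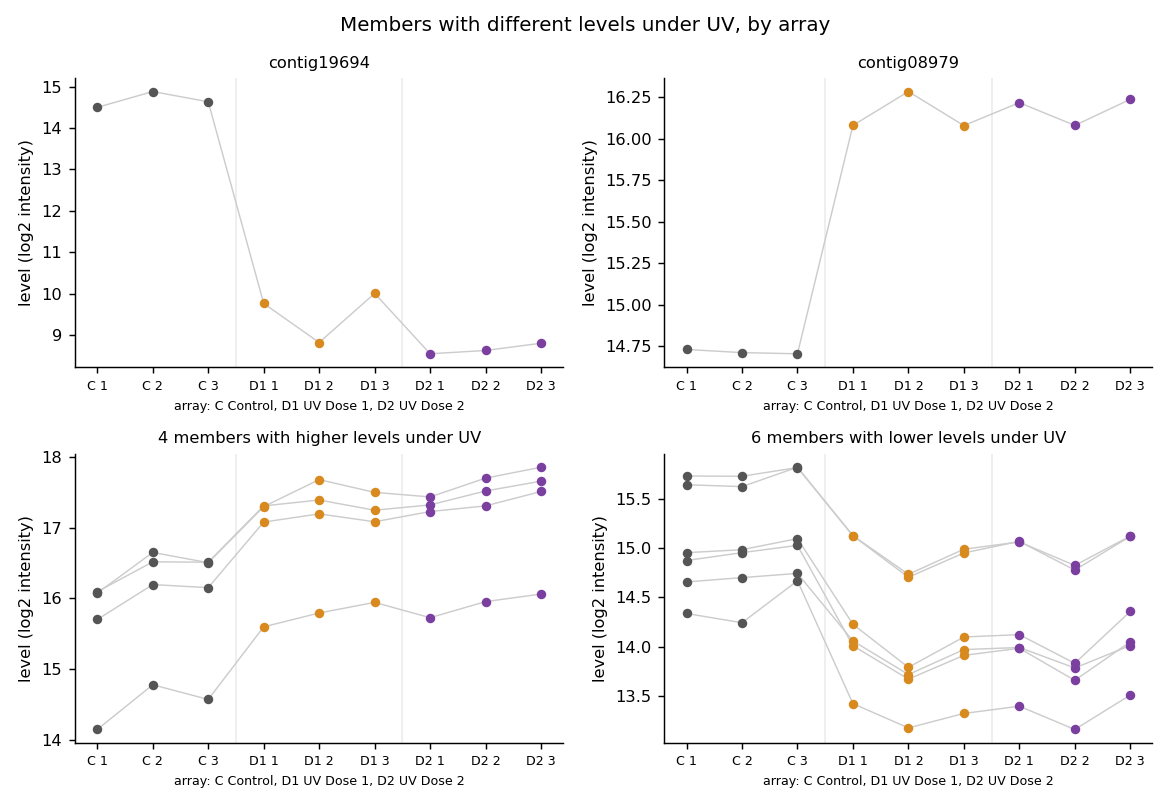
The level (log2 intensity) on each of the 9 arrays is plotted for contig19694, contig08979, the 4 members with higher and the 6 members with lower levels under UV; a grey line joins the points of a member and replicates have no order. All UV points lie on one side of the Control points in each member.

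The members varied less between replicates than other probes. The median SD over 3 arrays was 0.18 in Control, 0.14 under UV Dose 1 and 0.10 under UV Dose 2, against 0.35, 0.28 and 0.25 over all probes tested. The Control arrays took part in ranking the members, while the UV arrays took part only in the filter that all probes tested had passed. The median residual SD in the fit was 0.17 for ranks 1 to 100 and 0.15 for ranks 101 to 300, and grew to 0.18, 0.20, 0.26 and 0.41 towards the dimmest ranks. Of the 299 members, 264 lay below the median of all probes, which was 0.34. The share of probes called did not follow the spread in order: for UV Dose 1 it was 7% for ranks 1 to 100, 5.53% for ranks 101 to 300, 8.23% for ranks 3001 to 10000 and 3.87% beyond.

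**Figure D4:**
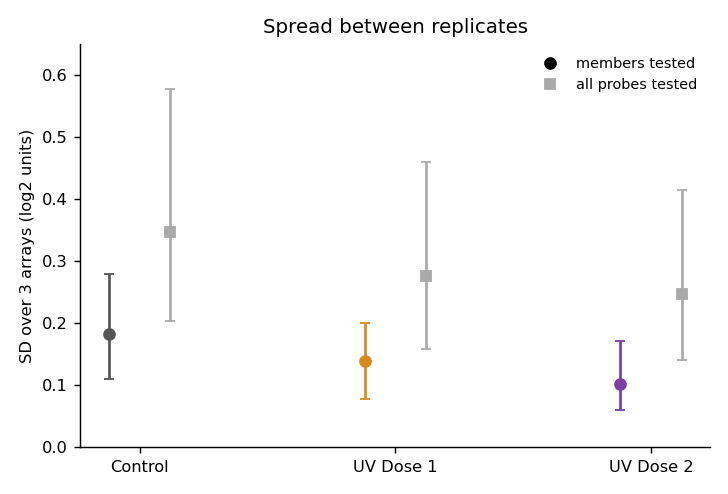
Points give the median and bars the quartiles of the SD over the 3 arrays of each group (log2 units), for the 299 members tested (circles) and all 27856 probes tested (grey squares). The members' medians of 0.18, 0.14 and 0.10 lie below those of all probes in each group.

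The steadiest members were contig22151 and contig21387. The level of contig22151 stayed between 14.49 and 14.64 on all 9 arrays, with a residual SD of 0.05. That of contig21387 stayed between 15.83 and 16.02, with a residual SD of 0.06. Neither was called in any comparison.

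A few members were far from steady. Only 57 of the 300 (19%) had an SD above 0.35 over the 9 arrays, against 58.6% of all probes, but 13 had a residual SD above 1 within groups. The least steady was GYUW2K401EIO4R, at Control rank 32. Its level was 17.67, 17.08 and 15.07 in Control, 9.76, 17.18 and 15.81 under UV Dose 1, and 16.76, 16.28 and 9.73 under UV Dose 2. It was dim on UV Dose 1 replicate 1 and UV Dose 2 replicate 3, both from slide 4, whereas the other arrays of that slide were bright. Between its brightest and dimmest array lay a 244-fold difference, the largest of any member and larger than that of contig19694 (80.6-fold). Its group means of 16.61, 14.25 and 14.26 (Control, UV Dose 1, UV Dose 2; n = 3) lay closer to each other than the SD within either dose, 3.95 and 3.93, though not than the Control SD of 1.36. Among 1298 probes with an SD above 1, the pattern most like it was that of contig26420, which is no member (r = 0.918 over 9 arrays). That of GYUW2K402GT9F1, no member either, was the most opposite (r = -0.948). The level of GYUW2K402GT9F1 was 9.06 and 9.28 on the pair of arrays where GYUW2K401EIO4R was dim, and 6.41 to 6.95 on the other 7.

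The next least steady were GYUW2K401AWZH1 and GYUW2K402JGWRU, with residual SDs of 1.79 and 1.76, and GYUW2K402GZV7X (1.43) shared their pattern. The level of GYUW2K401AWZH1 was 16.21, 11.78 and 15.46 in Control, 15.49, 12.15 and 15.73 under UV Dose 1, and 15.60, 15.72 and 15.84 under UV Dose 2. All 3 were 13.5-fold to 29.1-fold dimmer on their dimmest than on their brightest array. The dim arrays were Control replicate 2 and UV Dose 1 replicate 2, which share both slide 2 and the replicate number. UV Dose 1 replicate 3 of that slide was bright, and so was UV Dose 2 replicate 2. Counting these 3, 13 tested probes followed the pattern with a correlation of 0.95 or more, and 10 of them were no members.

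**Figure D5:**
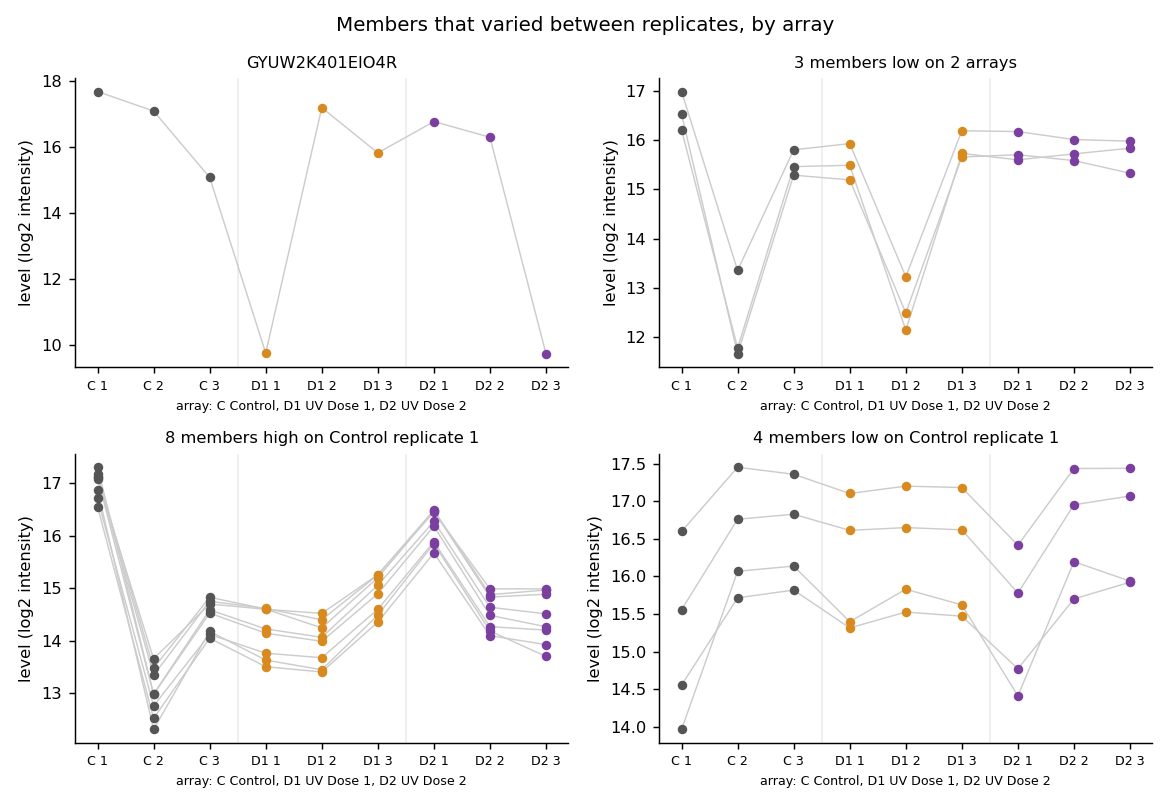
The level (log2 intensity) on each of the 9 arrays is plotted for GYUW2K401EIO4R and for the sets of 3, 8 and 4 members that varied together between replicates; a grey line joins the points of a member and replicates have no order. High and low arrays occur within the same group in each panel.

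Another set of 8 members was bright on Control replicate 1 and dim on Control replicate 2. They were contig04434, GYUW2K402FYSMY, contig04913, contig13990, GYUW2K402JO6US, contig08480, GYUW2K401BY11R and contig16066, with correlations of 0.986 or more. The level of contig13990 was 17.30, 12.99 and 14.59 in Control, 14.23, 14.07 and 15.06 under UV Dose 1, and 16.27, 14.64 and 14.51 under UV Dose 2. After Control replicate 1, UV Dose 2 replicate 1 was the brightest array in each of the 8. Their brightest and dimmest arrays, both in Control, were 10.8-fold to 23.6-fold apart. The 8 were part of a wider pattern of 210 tested probes with a correlation of 0.95 or more to their mean, of which 202 were no members.

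A set of 4 members went the other way on the same pair of arrays. They were contig13339, contig10750, GYUW2K401DO71M and GYUW2K401DIHML. With a correlation of 0.95 or more to their mean, 141 tested probes followed the pattern, and 135 were no members. The level of GYUW2K401DO71M was 13.97, 16.07 and 16.14 in Control, 15.40, 15.83 and 15.62 under UV Dose 1, and 14.41, 16.20 and 15.94 under UV Dose 2. Control replicate 1 and UV Dose 2 replicate 1 were the dimmest arrays in each of the 4, by 2.05-fold to 4.69-fold from the brightest. The sets were formed after the values were seen, by average linkage at a correlation of 0.95 among the 57 members with an SD above 0.35. In all, 28 members fell into 6 sets of 3 or more and 14 into 7 pairs, and 15 stood alone.

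Control replicate 1 stood apart in the whole group as well. A member's deviation from its own mean over the arrays had a median of 0.15 on this array, while the medians of the remaining 8 arrays ran from -0.08 to 0.05. When 300 probes were chosen on the other Control arrays and read against Control replicate 1 alone, the median change was -0.17 for UV Dose 1 and -0.09 for UV Dose 2. Read in the same way against Control replicate 2 it was 0.03 and 0.13, and against Control replicate 3 it was 0.01 and 0.10. Without Control replicate 1 the members' median change for UV Dose 1 turned from -0.04 to 0.17. For UV Dose 2 it kept its sign and grew from 0.04 to 0.26. In these fits 10 (3.34%) and 11 (3.68%) members were called, against 2.82% and 3.01% of all probes. Over all probes the medians without this array were 0.09 and 0.11. What sets this array apart was not tested.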

How the data were processed

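Total RNA of 9 pools of adult worms was labelled with Cy3 by the authors, and Agilent Feature Extraction 10.7.3.1 quantified the spots. What was deposited per array is spot intensity on a linear scale, background-subtracted and not normalized between arrays, with other values, namely flags of 0 or 1, that the authors' software set for each spot. A deposited table of the series holds the same intensity rounded, and was used as an alternative. The log2 intensity was computed here from the deposited values, with no pseudocount.

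The members and lists were chosen with earlier results of these data known. The filter left 27935 gene probes, and 79 with an outlier flag were left out. SVCD normalization was rewritten in R 4.3.3 from the study's methods, with 1% of probes trimmed by variance and a Kolmogorov-Smirnov level of 0.001, and used 9461 no-variation genes. limma 3.58.1 (lmFit and eBayes) fitted the 9 arrays with group means, two-sided, with Benjamini-Hochberg adjustment over 27856 probes and an adjusted p under 0.05 as a call. Both steps were tried on simulated data with few changed probes, about as many rises as falls, and independent noise. That setting is simpler than these arrays, so it does not show how the steps perform on them. With 3 arrays per group, their number limits the precision. Nothing in the sources used here says that pools came from separate cultures, so p values measure the spread between these pools.

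Named members were the 10 brightest in Control, the probes at the limit, the 3 largest rises and falls between the doses, the 4 largest rises and falls called at both doses, and the 2 steadiest and least steady; all others were named after their values were seen. The alternatives were Median, Quantile and MedianCD normalization, 75th percentile and spike-in scaling (8 of 10 spike-in transcripts, unsaturated and well above background), the deposited table, normexp with an offset of 50, other filters, the methods' t-test, the 6 arrays of a comparison, slide and replicate blocks, leaving out each array, and the 100 or 1000 brightest probes. Values within slides 2 and 4 were added after seeing the data.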

Additional observations from a re-analysis of the deposited data

How the results depend on the processing

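Members among the 300 brightest under UV ranged from 253 to 263 (UV Dose 1) and from 257 to 263 (UV Dose 2) over the alternatives, and calls between the doses were 0 under all 25. For UV Dose 1 against Control, calls fell from 18 to 11 (Median), 10 (Quantile), 8 (75th percentile), 3 (spike-ins), 7 (deposited table), 6 (no filter), 2 (methods' t-test), 4 (6 arrays) and 1 (slide as a fixed block). The share of all probes called fell too, from 5.26% to 3.53%, 4.65%, 3.4%, 0.987%, 3.23%, 1.7%, 0.538%, 1.93% and 0.079% in the same order. For UV Dose 2 they fell from 18 to 2 (spike-ins), 9 (deposited table), 7 (no filter), 2 (methods' t-test), 8 (6 arrays), 0 (slide as a fixed block, smallest adjusted p of a member 0.0878 in limma) and 9 (slide as a random block), and the share of all probes from 4.99% to 1.15%, 3.62%, 1.65%, 0.962%, 2.52%, 0% and 2.1%. Leaving out single arrays gave 4 calls (1.34%, without UV Dose 1 replicate 3) to 12 (4.01%, without UV Dose 2 replicate 1) for UV Dose 1. Of all probes, 2.27% and 3.49% were called in these fits. For UV Dose 2 there were 5 (1.67%, without UV Dose 2 replicate 2 or 3) to 17 calls (5.69%, without UV Dose 1 replicate 2). Of all probes, 1.85% and 1.62% were called without UV Dose 2 replicate 2 and 3, and 4.78% without UV Dose 1 replicate 2.

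The median change for UV Dose 1 moved from -0.04 to 0.078 (Median), -0.29 (MedianCD), 0.11 (75th percentile), 0.10 (spike-ins), 0.026 (well above background), 0.048 (slide as a fixed block, and within slide 2), and -0.17 and 0.034 read against Control replicates 1 and 2. For UV Dose 2 it moved from 0.04 to 0.21 (Median), -0.15 (MedianCD), 0.13 (75th percentile), 0.16 (slide as a fixed block), and -0.089 and 0.13 against Control replicates 1 and 2. The scalings shifted all probes nearly alike, with medians over all probes of 0.09 (Median), -0.28 (MedianCD), 0.12 (75th percentile) and 0.11 (spike-ins) for UV Dose 1 and of 0.14, -0.23 and 0.05 under the first 3 for UV Dose 2, against -0.03 and -0.04. Between the doses it moved from 0.08 to -0.032 (Quantile), -0.016 (spike-ins) and -0.014 (normexp), where all probes had -0.002, -0.083 and 0.003. Single arrays left out gave -0.12 to 0.17, -0.031 to 0.26, and 0.017 to 0.16 in the same order. The causes were not tested. Over all probes, the deviations of same-numbered arrays correlated by 0.028 to 0.56, with 7 of 9 pairs over 0.1. Pairs with different numbers ran from -0.454 to 0.342. Over the members, same-numbered pairs ran from -0.459 to 0.768. The numbers were not taken as pairs in the main fit. The replicate block gave 20 calls (6.69%) for UV Dose 1, 19 (6.35%) for UV Dose 2 and 0 between the doses. Of all probes, it called 6.51%, 6.09% and 0%. Each p rests on 3 arrays per group.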
